A study of Mus musculus with 5 samples.

Results

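Inflammasomes are cytosolic protein platforms that mature inflammatory cytokines. A sensor such as NLRP3, NLRP1B, NLRC4 or AIM2 detects damage or infection and gathers the adaptor ASC, encoded by Pycard, which recruits and activates caspase-1. Caspase-1 cuts the precursors of interleukin-1 beta (Il1b) and interleukin-18 (Il18) and the pore-forming protein gasdermin D (Gsdmd), whose pores release the cytokines and can kill the cell. Caspase-11, encoded in mice by Casp4, senses intracellular lipopolysaccharide and cuts gasdermin D directly. These 10 genes, chosen by symbol from the 18051 genes of the count table, are described here in dendritic cells of the mouse thymus. All 10 passed the filter on low counts and were tested. Nlrp1b, with the fewest counts, passed it through the untreated libraries.

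The cells came from C57BL/6J mice aged 6 to 8 weeks, either untreated (2 libraries) or 4 days after total body irradiation (TBI, 3 libraries), with no other treatment or allele named. Thymi were pooled, and cells were sorted as CD45-positive, CD11c-positive and positive for MHC class II (written MHC11 in the labels). The radiation dose is not given in the sources used here, and the treatment note names the irradiated samples by another day than the titles and treatment tags, whose day 4 was used. Whether replicates were separate pools is not stated, so p-values reflect only how these libraries spread, which may be technical.

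Libraries held 7227000 to 8428589 read counts. Levels are given as CPM, the count scaled to its TMM-adjusted library size, on which 1 count was 0.124 to 0.145. The first principal component of log2 CPM separated the groups. On the second component TBI replicate 1 had a score of -48.8, against 34.5 and 21.6 for replicates 2 and 3. All 10 markers of a core dendritic cell list were detected in every group. Of these, 8 were lower after TBI and 1 was higher. Markers counted here as lower or higher had an adjusted p under 0.05 in the edgeR test described below. By that rule 9.79% of all 12046 genes tested were lower and 13.3% were higher. The summed level of the 10 core markers was 49048 and 49328 CPM in untreated libraries and 33282 to 47981 CPM in TBI libraries. Cd74 and H2-Ab1, which serve antigen presentation on MHC class II, made up 93.5% to 97.1% of that sum in each library. Irf8, a transcription factor of dendritic cells, fell from 1721 ± 53.2 to 427 ± 57.3 CPM (SD, n = 2 and 3), and the growth factor receptor gene Flt3 fell as well, with 2530 and 2713 counts against 240, 328 and 264. Type 1 dendritic cell markers had 8 of 9 lower, plasmacytoid dendritic cell markers 8 of 8 lower and type 2 dendritic cell markers 5 of 8 higher. Of 13 macrophage markers all 13 were higher, with summed levels of 2967 and 3592 CPM against 21593 to 24523 CPM, and Apoe, C1qb and C1qc were the most abundant. Among 11 monocyte markers 4 were higher and 4 lower, and the sum went from 3255 and 3717 to between 29752 and 35102 CPM, most of it Lyz2. Of 12 neutrophil markers 11 were in the table, 3 were higher and 1 was lower. Their sum was 60.4 and 403 CPM against 511 to 733 CPM, and Elane and Mpo were at 0 counts in all TBI libraries. Untreated replicate 2 held 872 counts of Mpo and 216 of Elane, against 67 and 0 in replicate 1. These lists moved together with the results below, and their part in those results was not tested. In bulk samples, fewer cells of a type and less RNA per cell cannot be told apart.

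**Figure D1:**
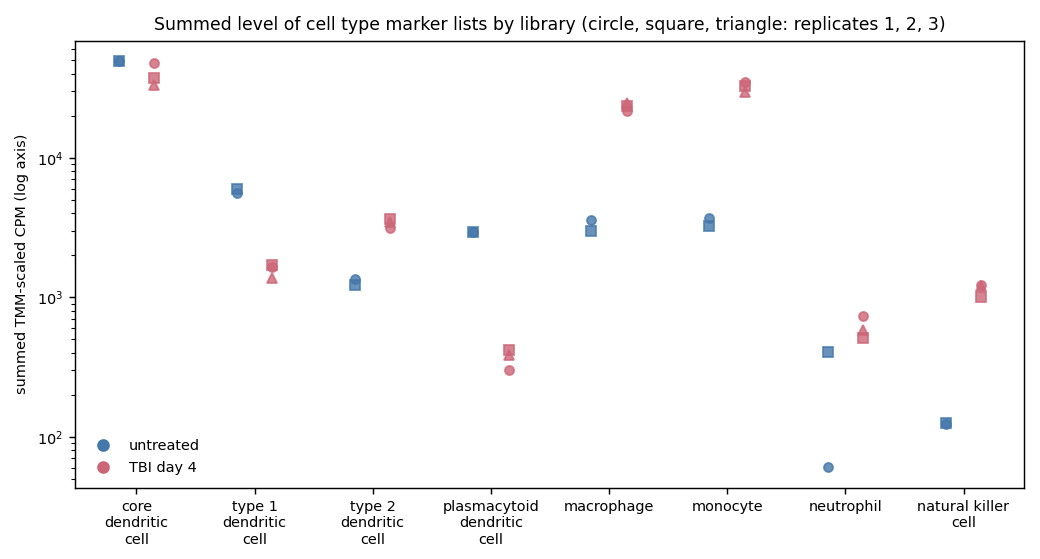
Summed TMM-scaled CPM (log axis) of 8 cell type marker lists in each of the 5 libraries, blue for untreated and red for TBI day 4. Macrophage, monocyte, neutrophil, natural killer and type 2 dendritic cell sums are higher in every TBI library. Core, type 1 and plasmacytoid dendritic cell sums are lower in every TBI library. Of the monocyte markers 4 were called higher and 4 lower, beside 13.3% and 9.79% of all genes tested.

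After TBI, 5 of the 10 inflammasome genes rose: the sensor Nlrp3, the adaptor gene Pycard, both caspase genes and, least, Il1b. Il18, Gsdmd, Aim2, Nlrc4 and Nlrp1b did not pass the test. Counts were tested with edgeR's quasi-likelihood test with Benjamini-Hochberg adjustment over all 12046 genes tested, at an adjusted p of 0.05. Over those genes 13.3% were higher, 9.79% were lower and 23.1% were called in either direction. Among the inflammasome genes 5 were higher and 0 were lower, and 6 had an unadjusted p under 0.05, where the share over all genes was 35.7%. Nlrp1b, the gene among these 6 that was not called, was lower after TBI. It reached the low-count filter only through the untreated libraries, where it is high. With library size alone as the scaling, all genes split into 1241 higher and 2129 lower, in place of 1599 and 1179. The median log2 fold change was 0.56 over the 10 genes and -0.01 over all genes tested. The untreated and TBI libraries did not overlap for 7 of the 10, Nlrp1b among them, beside 56.1% of all genes. Leaving out a library changed the count: 4 were higher without untreated replicate 1 or TBI replicate 2, and 3 without untreated replicate 2.

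Nlrp3 encodes the sensor that responds to potassium efflux, extracellular ATP, crystals and other signs of cell damage. Its level was 12.5 and 12.4 CPM in the untreated libraries and 46.9, 81.5 and 59.6 CPM in the TBI libraries. Every TBI library was above both untreated ones, and TBI replicate 1 was the lowest of its group. The fold change was 5.04 (95% interval 3.26 to 7.77), or 2.33 ± 0.27 on the log2 scale (SE; edgeR adjusted p = 0.000511). Nlrp3 lies on chromosome 11, 59541568 to 59566956, plus strand, in GRCm38, the build also called mm10.

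The other sensors did not pass. Aim2, which binds double-stranded DNA in the cytosol, had 15.7 and 17.3 CPM in untreated libraries and 17.5, 16.5 and 20.5 CPM after TBI. The groups overlapped, and the log2 fold change of 0.14 had a 95% interval of -0.37 to 0.65 (edgeR adjusted p = 0.700). Nlrc4, which acts with NAIP proteins that bind bacterial flagellin and secretion system parts, had 34 and 27 counts against 50, 34 and 38. Its CPM values of 4.20 and 3.42 lay just below the TBI values of 7.24, 4.31 and 4.97, and the log2 interval was wide, -0.44 to 1.49 (edgeR adjusted p = 0.416). Nlrp1b, a sensor cut by pathogen proteases, had 16 and 20 counts in untreated libraries and 4, 4 and 6 in TBI libraries. The groups did not overlap, but the difference of -1.83 ± 0.70 on the log2 scale did not pass (95% interval -3.42 to -0.23, edgeR adjusted p = 0.0971, unadjusted p = 0.0294). Nlrp1b has near-identical neighbours of the Nlrp1 family, so its reads are uncertain, and its relative Nlrp1a had 70 and 41 counts against 25, 65 and 74. Aim2 is on chromosome 1, 173350879 to 173466040, Nlrc4 on chromosome 17, 74425438 to 74459142, and Nlrp1b on chromosome 11, 71153102 to 71230733.

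Within a library, the ratio of Nlrp3 to Aim2 counts does not depend on how libraries are scaled. It was 0.795 and 0.715 in the untreated libraries and 2.68, 4.95 and 2.90 in the TBI libraries. Nlrp3 therefore had fewer counts than Aim2 in both untreated libraries and more in all 3 TBI libraries.

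Pycard encodes ASC, the adaptor that joins sensors to caspase-1 and assembles into the ASC speck. It had 83.7 and 78.4 CPM in untreated libraries and 252, 197 and 180 CPM in TBI libraries, with no overlap. TBI replicate 1 was the highest for Pycard and the lowest for Nlrp3. The fold change was 2.58 (95% interval 1.95 to 3.42; log2 1.37 ± 0.18, edgeR adjusted p = 0.000875). The gene lies on chromosome 7, 127989708 to 127993867, minus strand. Of its 3800 exonic bases 485 are shared with an annotated transcript on the opposite strand, and the strand setting of the counting is not given in the sources used here.

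Both caspase genes rose, Casp4 from a lower level than Casp1. Casp4 had 7.41 and 6.46 CPM in untreated libraries and 28.2, 25.4 and 30.7 CPM after TBI. The TBI values were close together and far from the untreated ones, a fold change of 4.04 (95% interval 2.78 to 5.88; log2 2.02 ± 0.24, edgeR adjusted p = 0.000511). Casp1 had 28.8 and 23.3 CPM against 54.1, 66.9 and 63.0 CPM, a fold change of 2.36 (95% interval 1.73 to 3.21; log2 1.24 ± 0.20, edgeR adjusted p = 0.00250). All TBI libraries were above both untreated libraries for Casp1, although its adjusted p was 0.0521 without untreated replicate 2. The ratio of Casp1 to Casp4 counts was 3.88 and 3.61 in untreated libraries and 1.92, 2.64 and 2.05 in TBI libraries, lower in all 3. The genes are neighbours on the plus strand of chromosome 9, Casp1 at 5298517 to 5307265 and Casp4 at 5308828 to 5336783.

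Among the substrates Il1b rose and Il18 and Gsdmd did not pass. Il1b had 1299 and 1295 CPM in the untreated libraries and 2205, 2148 and 1548 CPM in the TBI libraries. The groups did not overlap, but TBI replicate 3 was much closer to the untreated libraries than the other TBI libraries were. The fold change was 1.52 (95% interval 1.17 to 1.97; log2 0.60 ± 0.16, edgeR adjusted p = 0.0308). This call was lost when libraries were scaled by their size alone (log2 0.37, adjusted p = 0.0963), which moved the median of all genes from -0.01 to -0.23. It was also lost without untreated replicate 1 (adjusted p = 0.150), untreated replicate 2 (0.156) or TBI replicate 2 (0.112). Il1b lies on the minus strand of chromosome 2, 129364570 to 129371139, and shares 25 exonic bases with an antisense gene.

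Il1b was abundant before irradiation. It took 0.143% and 0.142% of all counts in untreated libraries and 0.202%, 0.201% and 0.149% in TBI libraries, where it ranked 38, 39 and 59 by counts among all genes. In the untreated libraries its rank was 47 and 49. Il1b held between 76.6% and 83.8% of the counts of the 10 genes in each library.

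Il18 had 29.7 and 23.8 CPM in untreated libraries and 28.2, 20.7 and 27.6 CPM in TBI libraries. The groups overlapped, with a log2 fold change of -0.07 and a 95% interval of -0.59 to 0.45 (edgeR adjusted p = 0.856). Gsdmd had 94.0 and 82.0 CPM against 106, 98.6 and 86.4 CPM, again with overlap (log2 0.14, 95% interval -0.22 to 0.49, edgeR adjusted p = 0.564). As fold changes the 95% intervals were 0.66 to 1.37 for Il18 and 0.86 to 1.41 for Gsdmd. They leave out a doubling or a halving but not the smaller changes inside them. Il18 is on chromosome 9, 50554827 to 50581840, and Gsdmd on chromosome 15, 75862327 to 75867408. The ratio of Il1b to Il18 counts was 43.8 and 54.4 in untreated libraries and 78.1, 104 and 56.1 in TBI libraries, so TBI replicate 3 was just above the untreated range.

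**Figure D2:**
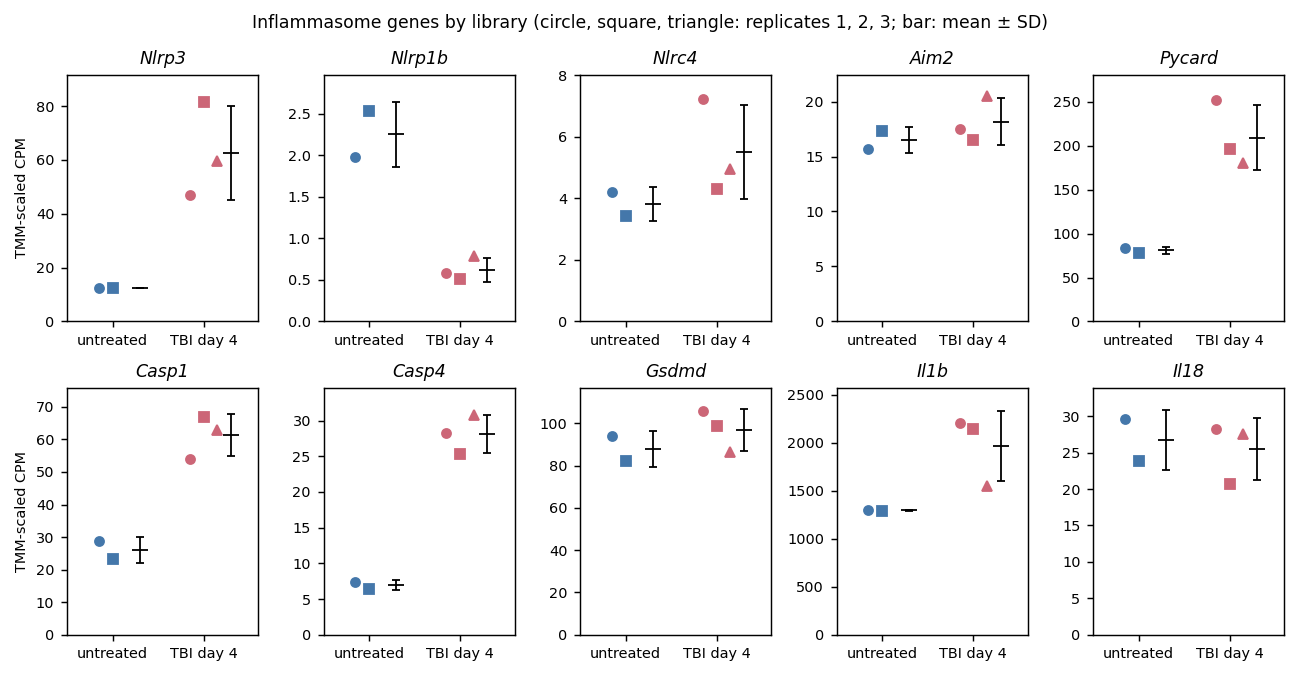
TMM-scaled CPM (linear axes from 0) of the 10 inflammasome genes in each library, with the mean and SD of each group beside the points (n = 2 untreated, n = 3 TBI day 4). Nlrp3, Pycard, Casp1, Casp4, Il1b and Nlrc4 are higher in all 3 TBI libraries, Nlrp1b is lower, and Aim2, Gsdmd and Il18 overlap. Nlrc4 and Nlrp1b did not pass the test.

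**Figure D3:**
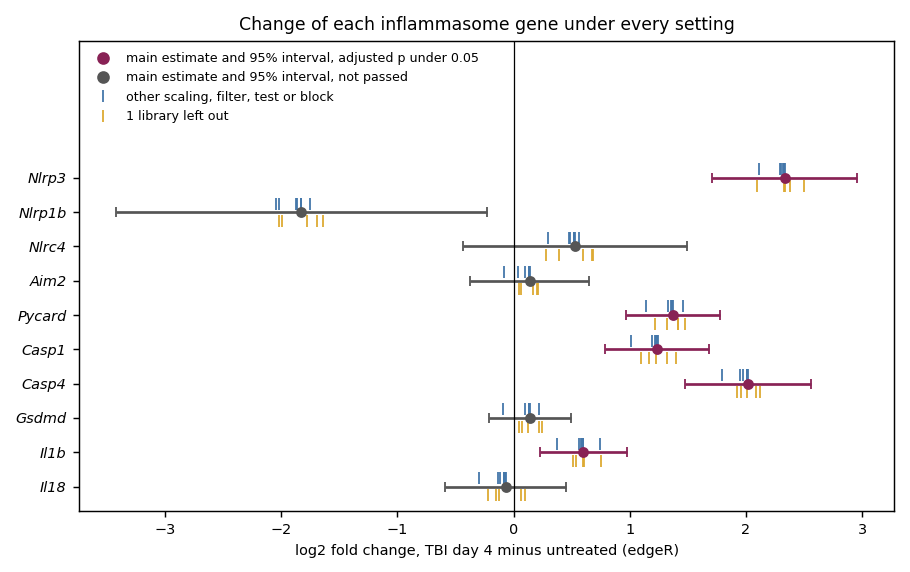
Log2 fold change of TBI day 4 against untreated for each gene, with the 95% interval of the edgeR estimate, other scalings, filters, tests and the block above it, and fits without 1 library below it. Intervals of Nlrp3, Casp4, Pycard, Casp1 and Il1b lie above 0, those of Aim2, Nlrc4, Gsdmd and Il18 include 0, and that of Nlrp1b lies below 0.

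Levels of different genes were compared per kilobase of annotated exon. In untreated libraries the order was Il1b (680 CPM per kb), Gsdmd (37.0), Il18 (25.9), Pycard (21.3), Casp1 (17.4), Aim2 (4.72), Nlrp3 (3.07), Casp4 (1.87), Nlrc4 (0.792) and Nlrp1b (0.358). No neighbours in that order overlapped over the 2 libraries. In TBI libraries it was Il1b (1031 CPM per kb), Pycard (55.1), Casp1 (41.0), Gsdmd (40.8), Il18 (24.7), Nlrp3 (15.4), Casp4 (7.57), Aim2 (5.19), Nlrc4 (1.15) and Nlrp1b (0.0989). Here Casp1 and Gsdmd overlapped, as did Il18 and Nlrp3. Thus Pycard and Casp1 went from below Gsdmd and Il18 to above Il18, and Nlrp3 and Casp4 went from below Aim2 to above it. Among tested genes with a known length, Nlrp3 moved from the 35.9 to the 72.7 percentile of level per length and Casp4 from the 26.6 to the 57.2 percentile. Il1b was at the 99.7 percentile in both groups. With the length of the longest principal transcript, chosen after the data were seen, Casp4 was at 4.83 CPM per kb in untreated and 19.6 CPM per kb in TBI libraries. It then lay above Nlrp3 in both groups, at 3.09 and 15.6 CPM per kb, and Gsdmd (54.1) lay above Casp1 (41.0) after TBI.

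**Figure D4:**
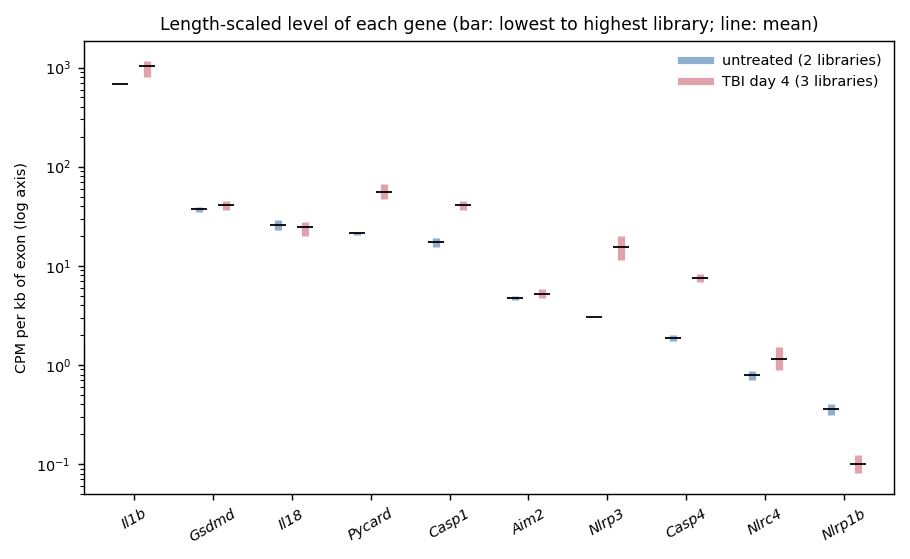
CPM per kb of annotated exon (log axis) of each gene, ordered by the untreated mean. Bars run from the lowest to the highest library of each group and the line is the mean. Nlrp3 and Casp4 lie below Aim2 in untreated libraries and above it after TBI, while Il1b is far above all others in both groups.

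The sequences before the start sites of Nlrp3, Casp4 and Pycard are shown because these genes had the largest rises among the 10. They come from RefSeq promoter windows (GRCm38.p6) of 250 bases before to 50 bases after each start, which held 12 windows for 9 of the 10 genes. Bases from the annotated exon onwards were left out. Capitals mark a match, on either strand, to the kappa-B form GGNNTTTCC in Nlrp3 and Casp4 and to the PU.1 core GAGGAAGT in Pycard. Nlrp3 has 2 start sites in RefSeq, at chr11:59541319-59541567 and chr11:59542436-59542685 (plus strand). Casp4 is shown at chr9:5308599-5308827 (plus strand) and Pycard at chr7:127993868-127994117 (minus strand).
Nlrp3 upstream start: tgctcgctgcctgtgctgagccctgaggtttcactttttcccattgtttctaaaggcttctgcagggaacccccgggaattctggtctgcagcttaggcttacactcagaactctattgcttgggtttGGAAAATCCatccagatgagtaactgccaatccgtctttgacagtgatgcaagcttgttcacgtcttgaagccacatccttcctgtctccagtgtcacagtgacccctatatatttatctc
Nlrp3 downstream start: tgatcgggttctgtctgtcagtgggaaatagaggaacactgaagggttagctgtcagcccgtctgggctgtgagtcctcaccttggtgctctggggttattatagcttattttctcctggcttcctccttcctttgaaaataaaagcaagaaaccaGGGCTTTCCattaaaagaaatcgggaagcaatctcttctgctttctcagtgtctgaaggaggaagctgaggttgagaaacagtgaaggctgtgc
Casp4: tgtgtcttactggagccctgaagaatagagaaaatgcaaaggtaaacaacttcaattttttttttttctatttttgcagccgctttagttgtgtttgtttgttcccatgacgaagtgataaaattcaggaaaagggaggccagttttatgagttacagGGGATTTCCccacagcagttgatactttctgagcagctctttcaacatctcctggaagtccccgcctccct
Pycard: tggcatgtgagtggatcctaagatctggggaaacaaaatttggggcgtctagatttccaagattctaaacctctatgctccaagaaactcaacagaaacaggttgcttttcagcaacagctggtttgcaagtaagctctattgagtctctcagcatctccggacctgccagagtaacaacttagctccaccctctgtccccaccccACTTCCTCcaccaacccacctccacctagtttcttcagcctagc

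The kappa-B form was found in 4 of the 12 windows, all of Nlrp3 or Casp4, and in 5.82% of all 32851 promoter windows. By gene it was in 2 of 9. A share by gene over all promoters was not computed, and Nlrp3 and Casp4 have 2 windows each, so the 5.82% is not comparable. Pycard, Casp1 and Il1b, which were called higher, had no match to the kappa-B form. The 2 windows of Casp4 overlap and hold the same matches, so they count 1 sequence again. Casp4 has a further match beyond the bases shown. The PU.1 core was found in 3 windows, those of Pycard, Aim2 and Nlrp1b, and in 3.20% of all windows. Aim2 and Nlrp1b, which carry it, did not pass the test. The core of the interferon-stimulated response element, GAAANNGAA, was in 0 of the 12 windows and in 8.56% of all. The motifs do not overlap in these windows. A match is a description of these letters and not of binding.

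Genes like Nlrp3 were sought among 7318 tested genes whose mean log2 CPM reached 4. Predicted genes (Gm numbers, Rik) and symbols that had become dates were left out. The genes whose profile over the 5 libraries was most like that of Nlrp3 were Slc28a2, App, Itga6 and Slc11a1. Likeness was the root mean square difference between log2 CPM values centred on each gene's mean, and it was 0.14, 0.14, 0.15 and 0.17. Slc28a2 encodes a nucleoside transporter, App the amyloid precursor protein, Itga6 an integrin chain and Slc11a1 a metal ion transporter of phagosomes. No inflammasome gene was called lower, so no such search was made for a fall.

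The rest of the pathway was described with 6 lists that held 77 genes, of which 74 were in the table and 72 were tested. Of these 32 were higher and 0 were lower, with a median log2 fold change of 0.70, beside 13.3% higher and 9.79% lower over all genes. Of the 32, 4 (Naip1, Il1f9, Il33 and Il18r1) reached the low-count filter only through the TBI libraries, where they are high. Without untreated replicate 2 the count of higher genes was 21.

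Priming receptors and their signal chain had 8 of 15 higher, beside 13.3% of all genes, with a median of 0.78. Cd14, a co-receptor for lipopolysaccharide, was at 184 ± 18.4 CPM in untreated and 3147 ± 505 CPM in TBI libraries (mean ± SD, n = 2 and 3; log2 4.10 ± 0.19, SE). Tlr4, the lipopolysaccharide receptor, went from 6.63 ± 0.113 to 41.5 ± 10.6 CPM (log2 2.64 ± 0.28) and Tlr2, a receptor for bacterial lipopeptides, from 93.6 ± 11.8 to 374 ± 66.0 CPM. Nfkbia, the NF-kB inhibitor that is also an NF-kB target, rose by 0.99 ± 0.13 on the log2 scale. The NF-kB subunit genes Nfkb1 (-0.29) and Rela (0.30) did not pass (edgeR adjusted p = 0.217 and 0.142).

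Among other sensors and assembly factors 2 of the 15 tested were higher, a share near the 13.3% of all genes, and the median was 0.03. These were Naip1, a sensor that acts through NLRC4, and Nod1, a sensor of bacterial peptidoglycan. Naip1 had 3 and 0 counts in untreated libraries against 16, 50 and 18, a count ratio of 19.9 (95% counting interval 6.60 to 98.7). It reached the low-count filter only through the TBI libraries, where it is high. It did not pass without untreated replicate 2 (edgeR adjusted p = 0.164) or TBI replicate 2 (0.0682), or with limma-voom (0.0700). Reads of the near-identical Naip genes can be shared, and Naip2, Naip5 and Naip6 did not pass. Nod1 was just inside the threshold (log2 0.82 ± 0.25, edgeR adjusted p = 0.0481) and did not pass in most of the alternatives, such as DESeq2 size factors (0.0508). Nek7, the kinase that NLRP3 needs for assembly, had 124 ± 3.09 and 109 ± 6.36 CPM and did not pass (edgeR adjusted p = 0.368).

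Regulators and licensing factors had 8 of 18 higher, beside 13.3% of all genes, with a median of 0.79. Gbp3, a guanylate-binding protein of the family that exposes bacterial lipopolysaccharide to caspase-11, went from 19.7 ± 0.956 to 113 ± 3.97 CPM (log2 2.52 ± 0.16). Gbp2 rose too (1.77 ± 0.29), while Gbp5 had 152 and 79 counts against 77, 245 and 179, with overlap. Serpinb1a, an inhibitor of neutrophil proteases and inflammatory caspases, went from 24.2 ± 3.69 to 135 ± 28.5 CPM (2.48 ± 0.23). Trem2, a lipid receptor of macrophages, went from 3.87 ± 0.641 to 59.5 ± 7.94 CPM (3.93 ± 0.25), and Tmem176b, an ion channel reported to restrain NLRP3, from 194 ± 42.3 to 660 ± 65.7 CPM (1.76 ± 0.17). Of the ATP-gated channels P2rx4 rose (1.23 ± 0.13). P2rx7, the ATP receptor upstream of NLRP3, had 151 and 227 counts against 188, 272 and 420, with overlap (edgeR adjusted p = 0.162).

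Of 12 tested cell death effectors 5 were higher, beside 13.3% of all genes, with a median of 0.41. Ninj1, which ruptures the plasma membrane after pore formation, went from 113 ± 16.0 to 517 ± 42.1 CPM (log2 2.19 ± 0.15). Mlkl, the executioner of necroptosis, went from 24 and 16 counts to 137, 138 and 150 (2.92 ± 0.30). Its activating kinase gene Ripk3 did not pass (0.29, edgeR adjusted p = 0.283). Lgals3, which marks damaged endosomes, rose by 1.32 ± 0.12, and Casp8, the caspase that links death receptors to inflammasomes, by 0.76 ± 0.14. Casp8 did not pass without untreated replicate 1 (edgeR adjusted p = 0.0662) or 2 (0.112). Dfna5, which encodes gasdermin E, had 28 and 29 counts against 11, 13 and 13 and did not pass (edgeR adjusted p = 0.172).

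Genes for 4 other interleukin-1 family ligands were tested. Of these Il33 and Il1f9 reached the low-count filter only through the TBI libraries, where they are high, so no count over the list is read. Il1a, which encodes interleukin-1 alpha, had 845 and 1114 counts in untreated libraries and 1903, 2863 and 2006 in TBI libraries (log2 1.29 ± 0.20). The ratio of Il1b to Il1a counts was 12.4 and 9.18 in untreated libraries and 8.01, 5.92 and 5.90 in TBI libraries, lower in all 3. Il33, an alarmin of barrier and stromal cells, had 0 counts in both untreated libraries and 159, 6 and 37 in TBI libraries. Its mean was at least 25.4-fold higher against a floor of 3 counts per untreated library, most of it from TBI replicate 1. Il1f9, which encodes interleukin-36 gamma, had 5 and 5 counts against 61, 60 and 11. limma-voom called neither Il33 (adjusted p = 0.219) nor Il1f9 (0.204). Without either untreated library both lost their call, as did Il1f9 without TBI replicate 2 (edgeR adjusted p = 0.0828) and Il33 without TBI replicate 3 (0.0683). Il1rn, which encodes the interleukin-1 receptor antagonist, had 3895 and 4807 counts against 3919, 5898 and 4908, with overlap (log2 0.26 ± 0.16, edgeR adjusted p = 0.291). The ratio of Il1b to Il1rn counts was 2.70 and 2.13 in untreated libraries and 3.89, 2.87 and 2.41 in TBI libraries, so these overlapped.

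Of 8 genes for receptors and inhibitors of interleukin-1 and interleukin-18, 6 were higher, beside 13.3% of all genes, with a median of 1.04. Of the 6, 1 (Il18r1) is among the genes that passed the filter through the TBI libraries. Il18rap, a subunit of the interleukin-18 receptor, had 19 and 21 counts in untreated and 123, 192 and 169 in TBI libraries (log2 3.09 ± 0.30), and Il1rl1, the receptor for interleukin-33, went from 3.57 ± 0.680 to 27.4 ± 5.52 CPM (2.94 ± 0.30). In the same libraries 7 of 8 tested natural killer cell markers were higher, beside 13.3% of all genes. The sums of these markers were 123 and 126 CPM against 996 to 1221 CPM. The part of natural killer cells in the rises of Il18rap and Il1rl1 was not tested. Il1r2, a decoy receptor that binds interleukin-1 without signalling, went from 78.7 ± 1.93 to 167 ± 16.1 CPM (1.09 ± 0.14). Il18bp, which neutralises interleukin-18, went from 52.8 ± 7.41 to 105 ± 8.27 CPM (0.99 ± 0.16), and it did not pass without untreated replicate 2 (edgeR adjusted p = 0.0708). The ratio of Il18 to Il18bp counts was 0.511 and 0.500 in untreated libraries and 0.295, 0.191 and 0.247 in TBI libraries, lower in all 3. Il1r1, the signalling receptor of interleukin-1, had 53 and 32 counts against 11, 46 and 17 and did not pass (edgeR adjusted p = 0.443).

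**Figure D5:**
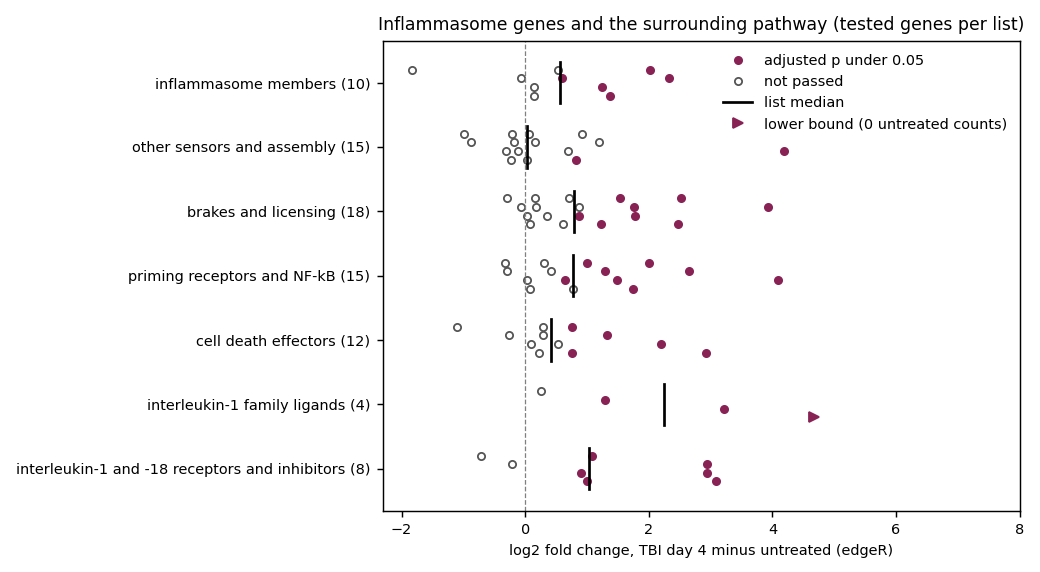
Log2 fold change of TBI day 4 against untreated for the 10 inflammasome genes and the 72 tested genes of 6 pathway lists, with filled points past an adjusted p of 0.05 and a line at each list's median. All filled points lie above 0, and the triangle is the lower bound for Il33, which had 0 untreated counts.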

How the data were processed

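RNA from sorted thymic dendritic cells was sequenced in 5 libraries made with a SMART-Seq v4 kit, per the labels' protocols. The kit adds no molecular identifiers, so counting intervals and floors cover counting error only. Per the submitters' processing notes, the authors aligned reads to mm10 with STAR 2.5.2a and counted them with featureCounts 1.6.0. What they deposited is a table of raw read counts, 1 row per symbol. The annotation, strand setting and treatment of multiply mapped reads are not given in the sources used here. Of 18051 symbols 23 had become dates, with 0.221% of counts.

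The test was edgeR's (4.0.16, in R 4.3.3), with TMM scaling, filterByExpr (count 10, total 15) and quasi-likelihood dispersion over 12046 genes, with the group as the only term. CPM use TMM-scaled library sizes. Intervals are 95% intervals from the same fit. Lengths and positions are from GENCODE vM21 (GRCm38), with lengths for 99.2% of tested genes. The functions were tested on simulated data. Alternatives were other scalings, filters, DESeq2 1.42.0, limma-voom (limma 3.58.1), robust shrinkage, a threshold of at least 2-fold, a block for the replicate number, and leaving out each library. Where 1 untreated library remains, its spread is taken from the TBI libraries.

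Members and lists were chosen with earlier results of these data known, so no list was tested. Named were all members, up to 4 called genes per pathway list with the smallest p, and, of some cell type lists, genes among the 3 highest by mean CPM. Other genes, among them Flt3, Elane and Mpo, were named after their values were seen. Cell type lists not used in the text (mature dendritic cells, T cells, B cells and stroma) had 0, 1, 5 and 2 markers higher and 5, 5, 0 and 2 lower. Over all genes tested 13.3% were higher and 9.79% lower.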

Additional observations from a re-analysis of the deposited data

How the results depend on the processing

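The alternatives for single genes include the threshold of at least 2-fold, which reuses the main fit. There no direction could change and no gene could gain a call. Across 149 combinations of an inflammasome gene and an alternative, 139 kept the direction and the side of the threshold. In 6, of Il1b and Casp1, the same direction no longer passed. In 4 the sign of a gene that had not passed changed: with library size alone Aim2 was at -0.086 and Gsdmd at -0.089 on the log2 scale, and with a library left out Il18 ranged from -0.22 to 0.10. The cause was not tested. Library size alone gave 2129 lower genes over the whole table (1241 higher, against 1599 higher and 1179 lower) and 2 lower genes in the pathway lists. A threshold of at least 2-fold gave 743 lower genes. With each library left out in turn, calls over all genes ran from 1233 to 3928 (810 to 2148 higher, 423 to 1780 lower), calls among the 10 inflammasome genes from 3 to 5, all of them higher, and pathway list calls from 21 to 40 higher and 0 to 1 lower. The lowest counts over all genes came without untreated replicate 1 (1238) or 2 (1233), which leaves 1 library in that group.

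Replicate numbers are shared between the groups, but nothing in the labels pairs the samples, and deviations of same-numbered libraries correlated at -0.02 and -0.01 over 12046 genes. With 2 untreated libraries their deviations mirror each other. Both values therefore rest on 1 untreated difference and cannot settle whether the samples are paired. With the replicate number as a block 2777 genes were called, with 5 inflammasome genes higher and 31 pathway genes higher. Replicate 3 exists only in TBI, so in that fit it adds nothing to the difference between the groups. The log2 fold change of Il1b was 0.75 with the block and 0.75 without TBI replicate 3, against 0.60 in the main fit. Depth limits Nlrp1b and Nlrc4 most, with 4 to 50 counts per library.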
